A study of Mimachlamys nobilis with 6 samples.

Results

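In adductor muscle of QN Orange scallops, 75 genes followed an axis of variation between sequencing libraries that runs across the groups of an RNA interference (RNAi) experiment. The study compared 3 libraries from scallops with RNAi against VPS29 with 3 libraries from scallops without RNAi. All came from the animals' adductor muscle at an age of 1 year, and the sources used here give no dose, delivery or duration of the RNAi. The labels say that RNA was isolated per tank, without saying how many animals or tanks stand behind a library, so the spread between libraries may be partly technical. The axis sets RNAi replicate 1 and control replicates 1 and 3, called side P here, apart from RNAi replicates 2 and 3 and control replicate 2, called side Q. Each side therefore mixes RNAi and control muscle.

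The 75 genes were chosen from the measured levels themselves. Levels are FPKM, which are fragment counts per gene length, scaled for library size, and differences are on the log2(FPKM + 1) scale. Of 30231 gene IDs, 9715 reached 1 FPKM in at least 3 libraries. A gene was taken if all libraries of one side lay above all libraries of the other and the side means differed by at least 1.5 in size. There were 60 genes higher on side P (0.618% of those tested) and 15 genes lower on side P (0.154%). Without the demand on size, side P lay wholly above side Q for 14.8% of tested genes and wholly below it for 12.4%. These differences define the genes, so they are described without a test. The balance of the directions rests on the authors' scaling: the rule gave 27 genes higher and 242 lower on side P after scaling to TPM, and 13 higher and 121 lower after scaling to total recovered reads. Those scalings moved the median side difference of all tested genes to -0.51 and -0.42, against 0.01 as deposited.

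The adductor closes the shell, and in scallops it has a fast striated part used in swimming and a smooth part that holds the valves shut with little energy. VPS29 belongs to retromer, a protein coat on endosomes that sends cargo receptors back to the Golgi or the plasma membrane. In RNAi, short RNAs made from a double-stranded RNA guide the destruction of a matching transcript. Gene IDs come without gene names in the files, so the roles of the 75 genes, muscle markers and the level of the VPS29 transcript are not given here. In bulk muscle, fewer cells of a type and less RNA per cell cannot be told apart.

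Recovered reads ranged from 16151389 to 21546537 per library, and 18130 to 20112 IDs had a value above 0. The sides also differed in how reads were spread over genes. The 10 most abundant genes took 49.8% of recovered reads in RNAi replicate 1, 53.4% in control replicate 1 and 66.2% in control replicate 3, the libraries of side P. On side Q they took 38.3% and 39.3% in RNAi replicates 2 and 3 and 43.4% in control replicate 2. The library size that the authors' FPKM imply, divided by the recovered reads, was 1.51, 0.97 and 0.74 in the same 3 libraries of side P, and 1.67, 1.57 and 1.47 in those of side Q. The sides overlapped on this ratio, since RNAi replicate 1 lay above control replicate 2. They did not overlap on the share of abundant genes, and the part of that share in the results below was not tested.

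**Figure D1:**
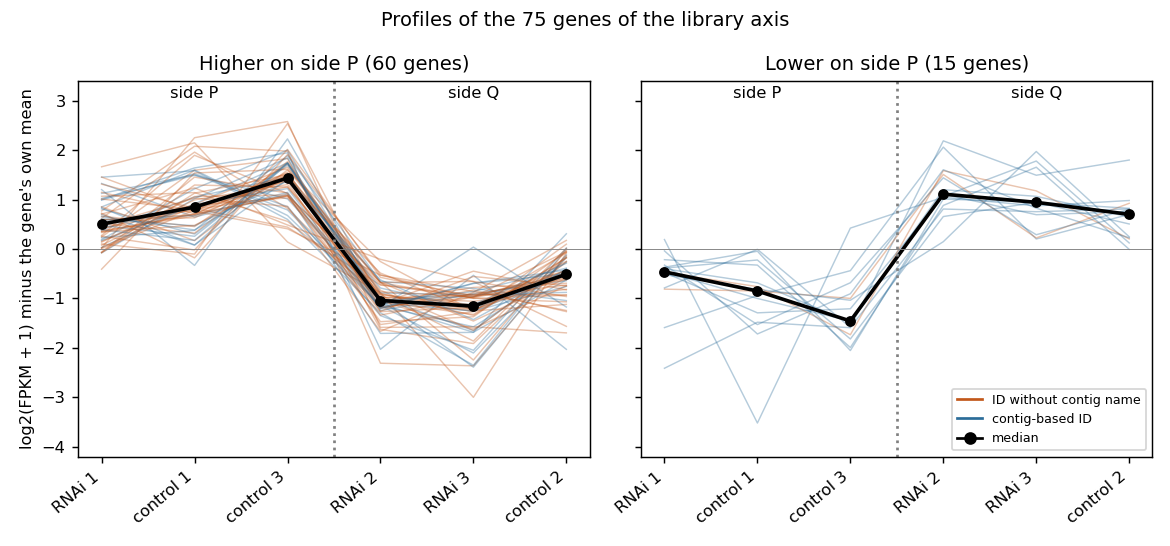
Profiles of the genes of the axis, as log2(FPKM + 1) minus each gene's own mean over the 6 libraries, for 60 genes higher on side P (left) and 15 genes lower on side P (right). Thin lines are genes, coloured by the kind of ID, and black points are medians. Control 3 lies farthest out among side P in both panels, and control 2 lies nearest to side P among side Q in the medians.

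Among the 60 genes higher on side P, the median level was 8.17 FPKM in RNAi replicate 1, 12.6 FPKM in control replicate 1 and 14.3 FPKM in control replicate 3. On side Q it was 2.19 and 1.05 FPKM in RNAi replicates 2 and 3 and 3.72 FPKM in control replicate 2. The medians thus formed a graded order rather than a pair of flat levels, as the profile plot shows. Within each side, the medians of the RNAi libraries lay below those of the control libraries.

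The order of libraries within a side varied from gene to gene among these 60 genes. Control replicate 3 was the highest library in 42 of them, control replicate 1 in 14 and RNAi replicate 1 in 4. RNAi replicate 1 was the side P library nearest to side Q in 33 genes, and control replicate 2 was the side Q library nearest to side P in 44. Both held in 24 genes. At the bottom, RNAi replicate 3 was the lowest library of side Q in 34 genes, RNAi replicate 2 in 19 and control replicate 2 in 7.

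One library led some of these genes by a wide margin. In 12 of the 60, control replicate 3 was at least 2-fold above every other library, and in 1 gene control replicate 1 was. With control replicate 3 left out and the rule applied to the other 5 libraries, 34 genes were higher on side P, of which 28 were among the 60. With RNAi replicates 1, 2 and 3 left out in turn there were 172, 62 and 54. With control replicates 1 and 2 left out in turn there were 102 and 155. With 5 libraries fewer values have to be separate, so these counts and the 60 are not on equal terms. The cause of these differences in count was not tested. The gap between the lowest side P library and the highest side Q library was 0.67 on the log2 scale in the median gene. It ranged from 0.014 to 1.59.

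Among the 15 genes lower on side P, the side P libraries held the low values. Their median level was 2.43 FPKM in RNAi replicate 1, 2.18 FPKM in control replicate 1 and 1.49 FPKM in control replicate 3. On side Q it was 14.0 and 13.6 FPKM in RNAi replicates 2 and 3 and 9.21 FPKM in control replicate 2. Control replicate 3 was the lowest library in 9 of the 15 genes, and RNAi replicate 2 the highest in 10. RNAi replicate 1 was the side P library nearest to side Q in 9. The side Q library nearest to side P was RNAi replicate 3 in 7, control replicate 2 in 6 and RNAi replicate 2 in 2. The rule gave 74, 26 and 23 such genes without RNAi replicates 1, 2 and 3, and 34, 77 and 20 without control replicates 1, 2 and 3. These counts too ask for separation of fewer libraries than the 15 do.

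Of the 60 genes, 15 differed between sides by at least 2 on the log2 scale and 3 by at least 3, and the median difference was 1.75. Of the 15 genes in the other direction, 1 differed by at least 2 in size, and the median was -1.77. The genes next to the limit of 1.5 differed little from each other. Just inside it, 2 genes of 1684 and 3735 bases had differences of 1.505 and 1.514, and just outside it 2 genes of 923 and 634 bases had 1.497 and 1.495. In the other direction the nearest genes stood at -1.58 and -1.58 inside and at -1.495 and -1.490 outside. A further 25 genes with a side P mean higher by at least 1.5, and 26 with one lower by at least 1.5, were left out only because the sides overlapped.

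**Figure D2:**
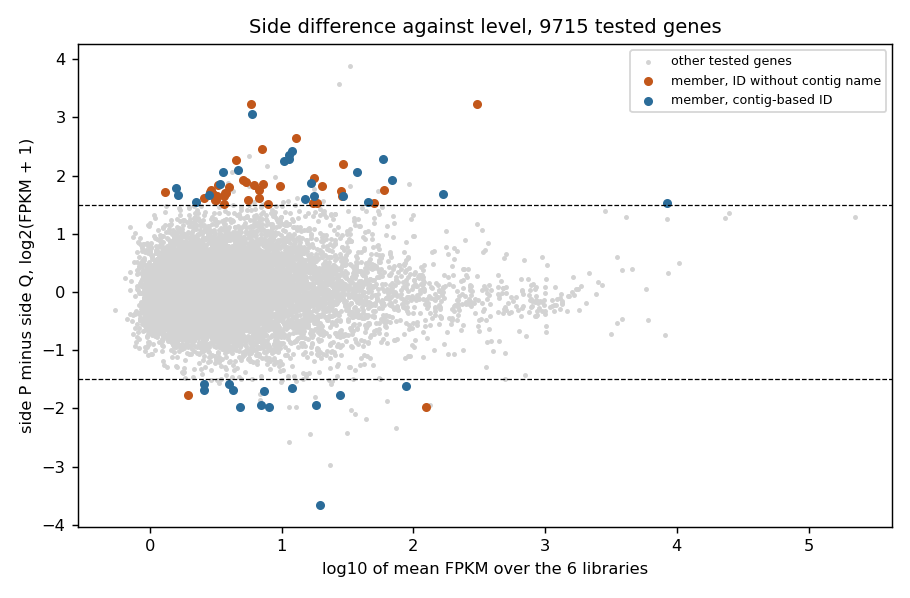
Side P minus side Q in log2(FPKM + 1) against the log10 of the mean FPKM over the 6 libraries, for 9715 tested genes. Coloured points are the genes of the axis, and dashed lines mark 1.5 and -1.5. Grey points beyond the lines are genes whose sides overlap, and 60 coloured points lie above against 15 below.

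The genes of the axis covered a wide range of levels. The mean over 6 libraries ranged from 1.30 to 8409 FPKM in the 60 genes higher on side P, with a median of 6.73 FPKM. It ranged from 1.93 to 124 FPKM in the 15 genes lower on side P, with a median of 7.35 FPKM, while the median of all tested genes was 3.25 FPKM. The mean was under 5 FPKM in 23 of the 60 and 6 of the 15. At least 1 library was listed at 0 in 6 of the 60 and in 3 of the 15. All libraries were at 1 FPKM or more in 28 of the 60 and 7 of the 15. The filter and the rule together place any level under 1 FPKM on side Q in the 60 and on side P in the 15. The added 1 shrinks the differences of such genes.

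The most abundant gene of the axis, with an inferred length of 441 bases and an ID on contig 744, was also among the 10 most abundant genes of the muscle. It had 7972, 3106 and 4379 FPKM in RNAi replicates 1, 2 and 3, against 13222, 5269 and 16507 FPKM in control replicates 1, 2 and 3. Its side difference of 1.53 was close to the limit. The sides were separate, while the RNAi and control groups overlapped, since RNAi replicate 1 lay above control replicate 2. The gene took most of the reads of the 60. Together the 60 genes held 0.791% of recovered reads in RNAi replicate 1, 0.777% in control replicate 1 and 0.795% in control replicate 3, against 0.315% and 0.374% in RNAi replicates 2 and 3 and 0.461% in control replicate 2. Without that gene, the shares were 0.259%, 0.211% and 0.256% on side P and 0.0861%, 0.0709% and 0.118% on side Q, in the same order.

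The largest difference among the genes higher on side P belonged to a gene of 358 bases, at 3.24 on the log2 scale. It had 2.29, 0.080 and 0.090 FPKM in RNAi replicates 1, 2 and 3, against 14.4, 0 and 18.4 FPKM in control replicates 1, 2 and 3. Both control replicates of side P were thus well above RNAi replicate 1, and all side Q libraries were near 0. The values of RNAi replicates 2 and 3 are 1 read each and that of control replicate 2 is 0 reads, where 3 reads would be 0.275 FPKM. Its gap between the sides, 1.59, was the second widest among all tested genes.

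A gene of 399 bases followed, at 3.22, and at a far higher level. It had 280, 32.2 and 31.0 FPKM in RNAi replicates 1, 2 and 3, against 696, 147 and 650 FPKM in control replicates 1, 2 and 3. Within each side the RNAi libraries lay below the control libraries, so the values fell in steps. From high to low these were the controls of side P, RNAi replicate 1, control replicate 2 and the RNAi libraries of side Q. With a mean of 306 FPKM it was the second most abundant of the 60 genes.

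In the other direction, evm.TU.Contig15741.1 had the largest difference, at -3.66. It had 0.974, 46.9 and 28.6 FPKM in RNAi replicates 1, 2 and 3, against 2.77, 35.6 and 2.49 FPKM in control replicates 1, 2 and 3. The gap between the sides, 2.97, was the widest among all tested genes, and on side Q the control library lay between both RNAi libraries. The next was evm.TU.Contig414.38, at -1.98. It had 2.07, 7.94 and 13.6 FPKM in RNAi replicates 1, 2 and 3, against 0.741, 3.64 and 0.844 FPKM in control replicates 1, 2 and 3. Here the RNAi libraries were the higher ones on both sides. The values of control replicates 1 and 3 are 4 reads each, where 3 reads would be 0.556 and 0.633 FPKM.

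The 2 most abundant genes lower on side P were well above 1 FPKM in each library. A gene of 960 bases had 66.2, 279 and 210 FPKM in RNAi replicates 1, 2 and 3, against 54.1, 107 and 27.0 FPKM in control replicates 1, 2 and 3. It was higher in RNAi on both sides. A gene of 513 bases on contig 53 had 55.5, 115 and 141 FPKM in RNAi replicates 1, 2 and 3, against 62.3, 130 and 19.9 FPKM in control replicates 1, 2 and 3. RNAi and control libraries were interleaved in it on either side, with control replicate 3 far below the others.

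The 2 directions differed in the kind of gene ID. The files hold 26777 IDs built from a contig name and a running number, which begin with evm.TU., the form that EVidenceModeler gives to gene models. The other 3454 carry a prefix that marks the gene model as new, then a running number and no contig name, and no source used here says how those gene models were made. IDs without a contig name made up 17.8% of tested genes. They made up 63.3% of the genes higher on side P (38 of 60, 95% Wilson interval 50.7% to 74.4%) and 13.3% of those lower on side P (2 of 15, 3.74% to 37.9%). The intervals cover counting error only and treat genes as independent, which genes of 1 contig or 1 transcript are not.

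The shift reached far beyond the genes of the axis. Across all 1726 tested IDs without a contig name, the median side difference was 0.48, and 80.2% lay above 0. Across the 7989 contig-based IDs it was -0.06, and 44.5% lay above 0. Side P lay wholly above side Q in 39.0% of the IDs without a contig name and in 9.63% of the contig-based IDs. It lay wholly below in 2.61% and 14.5%. The difference between both medians was 0.54 as deposited, 0.63 after scaling to TPM, 0.53 after quantile normalization and 0.54 after scaling to total recovered reads. The median of the IDs without a contig name itself was 0.03 under TPM and 0.04 under total recovered reads, so for them the direction against 0, unlike the difference from the contig-based IDs, rests on the scaling.

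**Figure D3:**
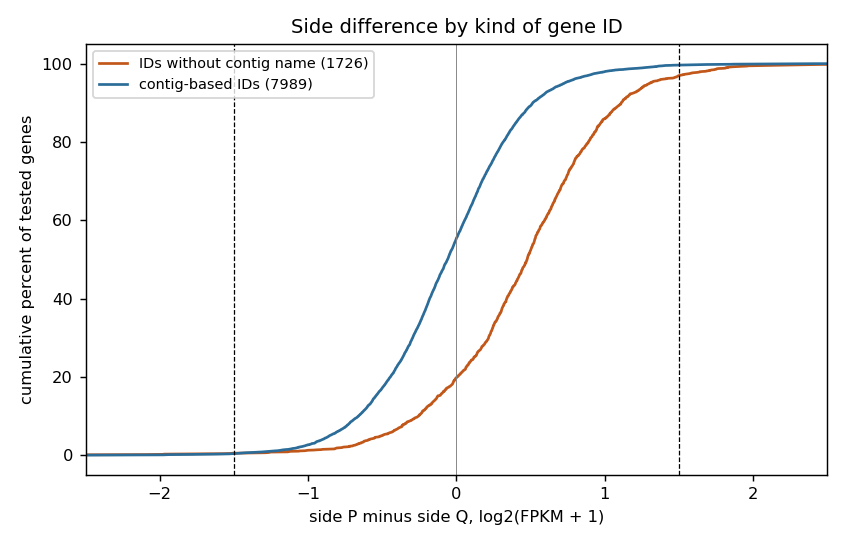
Cumulative percent of tested genes against the side difference in log2(FPKM + 1), for 1726 IDs without a contig name and 7989 contig-based IDs. Dashed lines mark 1.5 and -1.5. The curve of the IDs without a contig name lies to the right over nearly its whole course, with a median of 0.48 against -0.06.

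The higher share of IDs without a contig name that were higher on side P was seen at each level. Among tested genes with a mean under 5 FPKM, 1.30% of the IDs without a contig name and 0.141% of the contig-based IDs were higher on side P by the rule. From 5 to under 20 FPKM the shares were 3.94% and 0.391%, and at 20 FPKM or more they were 5.93% and 0.716%. For genes lower on side P, the shares were 0.0815% and 0.101% under 5 FPKM, 0% and 0.293% from 5 to under 20 FPKM, and 0.847% and 0.204% at 20 FPKM or more, where the first is 1 gene of 118. The inferred lengths of all tested genes were alike in both kinds, with medians of 1886 and 1956 bases. Within the 60 genes, those without a contig name had a median length of 1360 bases and a median level of 5.71 FPKM, and the contig-based ones had 600 bases and 11.7 FPKM. All IDs without a contig name took 39.8% of recovered reads in RNAi replicate 1, 40.8% in control replicate 1 and 52.5% in control replicate 3, the libraries of side P. On side Q they took 27.5% and 27.1% in RNAi replicates 2 and 3 and 33.8% in control replicate 2, so the sides were separate. Without the most abundant gene of the muscle, these IDs took 5.36% of recovered reads in RNAi replicate 1, 4.46% in control replicate 1 and 3.79% in control replicate 3. On side Q they took 5.01% and 4.61% in RNAi replicates 2 and 3 and 4.85% in control replicate 2, and the sides overlapped.

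Contig-based IDs give a rough position, since their running numbers count gene models along a contig. The 35 contig-based genes of the axis came from 27 contigs, and 12 of them shared a contig with another. On contig 313, chosen here after its values were seen, 6 of the genes higher on side P lay within 9 consecutive models, numbers 70, 72, 73, 74, 75 and 78. Their side differences ran from 2.06 to 2.43. The contig as a whole did not lean that way, as the median side difference of its 37 tested genes was 0.09 and 20 lay above 0.

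Models 72 to 75 of this run had nearly the same levels within a library, but the run as a whole did not. For the 4 consecutive models 72 to 75, with 207 to 867 bases, levels were 15.4 to 23.2 FPKM in RNAi replicate 1, 2.26 to 3.28 FPKM in RNAi replicate 2 and 0.661 to 1.09 FPKM in RNAi replicate 3. In control replicates 1, 2 and 3 they were 22.9 to 25.5, 6.96 to 7.85 and 12.4 to 16.6 FPKM. The 4 models differed by at most 1.65-fold within any library. Control replicate 1 was the highest library for them, not control replicate 3, and RNAi replicates 2 and 3 were the lowest.

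**Figure D4:**
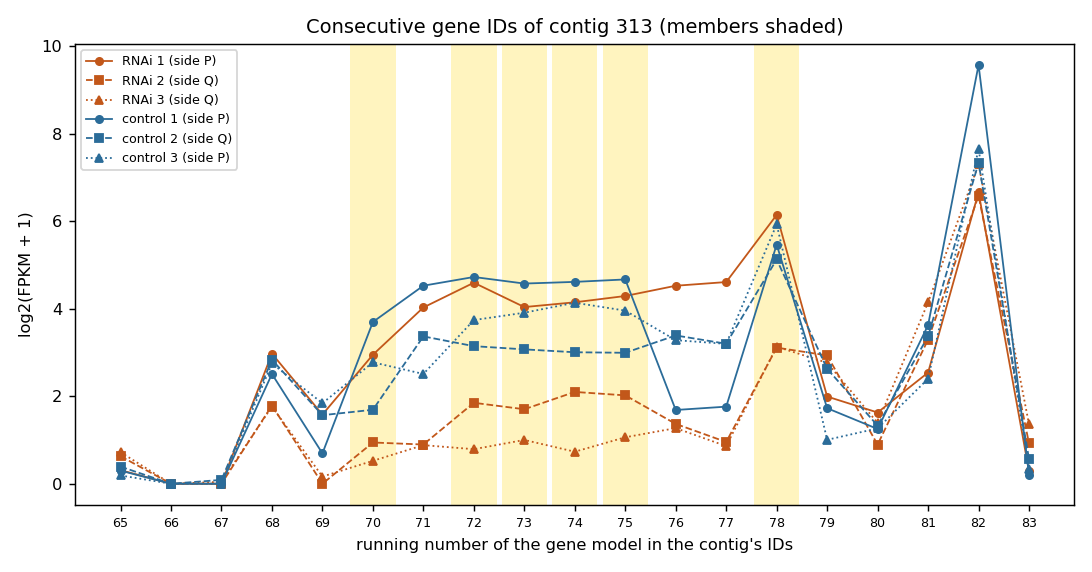
Levels in log2(FPKM + 1) of consecutive gene models on contig 313 by running number, 1 line per library, with the genes of the axis shaded. RNAi 2 and RNAi 3 lie lowest from number 70 to 78, and at models 76 and 77 control 1 drops to 2.22 and 2.39 FPKM and lies just above them.

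The models between and beside them show where the run ends. Model 71 missed the rule only by overlap, since control replicate 3 had 4.70 FPKM and control replicate 2 had 9.33 FPKM, and its side difference was 1.97. Models 76 and 77 had 22.0 and 23.4 FPKM in RNAi replicate 1 but 2.22 and 2.39 FPKM in control replicate 1, below the 9.48 and 8.19 FPKM of control replicate 2. Their side differences were 1.15 and 1.52, so model 77 also missed the rule only by overlap. Model 79 went the other way, at -1.20, and model 69 was at 0.80. Whether the run is 1 transcript cut into several models or several genes cannot be read from these files.

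Other contigs held at most 2 genes of the axis. Contig 121 had 2 higher and contig 144 had 2 lower on side P, while contig 53 had 1 in each direction. Over the tested genes of these 3 contigs, the median side differences were 0.03, -0.20 and -0.07. The 60 genes had inferred lengths of 207 to 7045 bases with a median of 887 bases, and the 15 genes 277 to 2590 bases with a median of 513 bases. The median of all tested genes was 1944 bases. Of the 98 tested genes whose ID joins several contig models, 1 was on the axis, and it was lower on side P.

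Setting RNAi against control muscle asks which transcripts differ after RNAi. Since side P holds 2 of the 3 control libraries, the rule also pushes this contrast. The log2 difference, RNAi minus control, was below 0 in 59 of the 60 genes higher on side P, with a median of -1.16, and above 0 in all 15 genes lower on side P, with a median of 1.06. Over the genes that the rule then gives, the median of those lower on side P was 1.57 without RNAi replicate 1. It was 0.65 without RNAi replicate 2, 0.61 without control replicate 1 and 1.80 without control replicate 2. The median over all tested genes was -0.05. In limma, 0 of the 75 genes and 0 of all tested genes (0%) passed an adjusted p of 0.05, and the smallest adjusted p among the 75 was 0.156. At an unadjusted p under 0.05, limma gave 12 of the 60 genes lower in RNAi, where 9.29% of all tested genes were, and 4 of the 15 higher in RNAi, where 7.73% were. Nothing is read from these shares, because the rule shaped them. By the rule, RNAi and control overlap in each of the 75, while RNAi lay wholly above control in 10.5% of tested genes and wholly below in 12.2%.

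Within each side, most of the 60 genes were lower in RNAi. On side P, RNAi replicate 1 was below the mean of control replicates 1 and 3 in 50 of the 60, and the median RNAi minus control difference was -0.56 on the log2 scale. On side Q, the mean of RNAi replicates 2 and 3 was below control replicate 2 in 47 of the 60, with a median of -0.55. The difference was below 0 on both sides in 39 genes, above 0 on both in 2 and of opposite sign in 19. Across all tested genes, RNAi was below control in 53.8% on side P and in 52.4% on side Q. The shares were 36.2% below 0 on both sides, 30.0% above 0 on both and 33.8% of opposite sign.

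The 15 genes lower on side P leaned the other way. RNAi was above control on side P in 13 of them, with a median of 0.68, and on side Q in 11, with a median of 0.43. Both sides were above 0 in 9 genes, none was below 0 on both, and 6 had opposite signs. Of the 9715 tested genes, RNAi was above control in 4491 on side P, in 4623 on side Q and in 2914 on both. The rule uses only which libraries lie on each side, so it does not set the sign of a within-side difference. However, side P holds RNAi replicate 1 alone and side Q control replicate 2 alone. The genes were also picked for a shared profile, so nothing is read from the within-side counts of both directions.

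**Figure D5:**
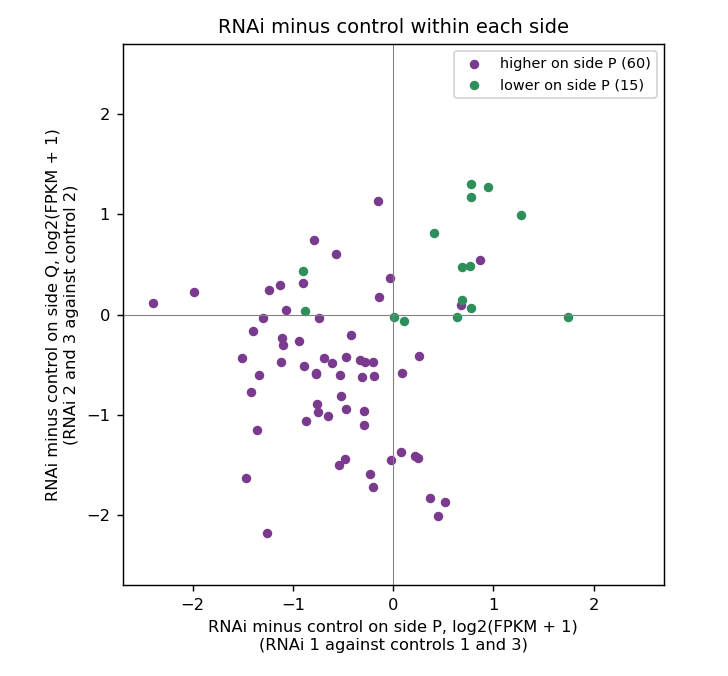
RNAi minus control in log2(FPKM + 1) on side P (horizontal) and on side Q (vertical) for the 75 genes of the axis. Of the 60 genes higher on side P, 39 lie below 0 on both axes, and of the 15 genes lower on side P, 9 lie above 0 on both.

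The within-side contrast has parts whose signs the rule fixes, although its own sign is left free. It is the mean of the difference between RNAi replicate 1 and control replicate 2 and the difference between RNAi replicates 2 and 3 and control replicates 1 and 3. By the rule, the first is above 0 and the second below 0 in every gene higher on side P. Their medians in the 60 genes were 0.99 and -2.21, and in the 15 genes -1.11 and 2.03. The sign of the within-side contrast says which of these was larger. With side as a further term in limma, its median was -0.66 in the 60 genes and 0.58 in the 15, against -0.04 in all tested genes. Over the genes that the rule then gives, the median of those higher on side P was -0.43 with TPM and -0.32 with total recovered reads. The median of those lower on side P was 0.33 without control replicate 1 and 0.90 without control replicate 2.

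In that limma fit with side as a term, 0 of the 75 genes and 0 of all tested genes (0%) passed an adjusted p of 0.05. At an unadjusted p under 0.05, 15 of the 60 genes were lower in RNAi, where 8.92% of all tested genes were, and 1 was higher. Of the 15 genes, 4 were higher in RNAi at that level, where 7.31% of all tested genes were. The rule leaves the direction free, but the genes were chosen from the same values, and nothing is read from these shares. Only 1 library of RNAi on side P and 1 of control on side Q stand behind the contrast.

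A gene of 331 bases had 5.19, 0.695 and 0.389 FPKM in RNAi replicates 1, 2 and 3, against 14.8, 3.76 and 17.6 FPKM in control replicates 1, 2 and 3. The values of RNAi replicates 2 and 3 are 8 and 4 reads, where 3 reads would be 0.261 and 0.292 FPKM. The RNAi minus control difference was -1.47 on side P and -1.63 on side Q. The combined difference was -1.55 ± 0.20 (SE) and limma's adjusted p was 0.0825, the smallest of the 75, for which the gene was chosen after its values were seen. It did not pass the threshold, and the smallest adjusted p over all tested genes was 0.0511. The largest within-side fall was that of the gene of 399 bases described above, at -1.72 ± 0.29 (SE) and an adjusted p of 0.107 (limma). Its RNAi minus control difference was -1.26 on side P and -2.18 on side Q.

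The largest within-side rise belonged to a gene of 1113 bases on contig 423, lower on side P. It had 20.4, 66.0 and 38.0 FPKM in RNAi replicates 1, 2 and 3, against 5.69, 24.8 and 10.8 FPKM in control replicates 1, 2 and 3. RNAi was higher on side P by 1.27 and on side Q by 0.99, together 1.13 ± 0.34 (SE), and limma's adjusted p was 0.190. In evm.TU.Contig15741.1, whose sides were farthest apart, the within-side difference was -0.42 ± 0.30 (SE) (limma, adjusted p = 0.538). In evm.TU.Contig414.38 it was 1.04 ± 0.26 (SE) (limma, adjusted p = 0.156).

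Whether RNAi minus control differed between the sides was tested as an interaction in limma. At an adjusted p of 0.05, 0 of the 75 genes and 0 of all tested genes (0%) passed. At an unadjusted p under 0.05 there were 5 of the 75, all of them higher on side P, where 2.83% of all tested genes were. The genes were chosen from the same values, and RNAi on side P and control on side Q are 1 library each, so nothing is read from this count. The gene of 358 bases had the smallest p among the 75, with -2.40 on side P and 0.12 on side Q, a difference of -2.51 ± 0.42 (SE) and an adjusted p of 0.99997 (limma). With 1, 1 and 0 reads in the side Q libraries, its side Q difference had little room to depart from 0. Next was a gene of 3381 bases, named here for its rank after the values were seen. It had 1.33, 0.927 and 0.552 FPKM in RNAi replicates 1, 2 and 3, against 7.99, 0.475 and 8.45 FPKM in control replicates 1, 2 and 3. Only the controls of side P were high in it.

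The run on contig 313 held 2 of these 5 genes, models 72 and 78, whose interaction had the opposite sign to that of both genes just described, at 2.19 and 2.45. On side P its 6 genes had RNAi minus control differences of -0.29 to 0.45, while on side Q they ran from -2.01 to -0.96. With side as a term, the difference ran from -0.96 to -0.62 and the adjusted p from 0.316 to 0.563 in limma. RNAi replicate 1 was thus close to the controls of its side, and RNAi replicates 2 and 3 were well below control replicate 2.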

How the data were processed

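The deposited values are FPKM per gene ID, made by the authors. The unit was inferred from the values, which rise in whole-read steps that depend on the gene. Per the submitters' processing notes, the tools included HTSeq 0.9.1 and HISAT2 2.0.4; no source used here gives the genome build, the annotation or the strand setting. Whole reads, library sizes and gene lengths were recovered from these steps for 23403 of 23408 IDs above 0 (tolerance 1e-05 reads), and they serve as depth and in an alternative count-based fit. The shortest length giving whole reads was taken. The length and reads of a gene are therefore too low where its true reads share a factor. Floors (3 reads) and Wilson intervals cover counting error only.

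The 6 libraries were joined by ID, filtered at 1 FPKM in at least 3 libraries and put on the log2(FPKM + 1) scale. In limma 3.58.1 (R 4.3.3, lmFit and eBayes with trend and robust) 3 models were fitted over 9715 genes: group, side plus group, and their interaction, with Benjamini-Hochberg adjustment and a threshold of 0.05. The scripts were tested on simulated data. The members, lists and sides were chosen with earlier results of these data known. The genes described singly are the 2 per direction with the largest side difference at a mean of at least 5 FPKM on their higher side, the 2 most abundant, those nearest the size limit and the largest within-side changes. The other genes described singly were chosen after their values were seen. No libraries were identical, with a median chi-square of 3.89 to 8.61 per gene between libraries of a group. Alternatives were another filter, pseudocount, scaling, size threshold, moderation, a replicate block, voom on recovered reads and leaving out each library.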

Additional observations from a re-analysis of the deposited data

How the results depend on the processing

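As reported, 60 genes were higher and 15 lower on side P. The counts were 36 and 9 with a filter of 5 FPKM, 211 and 89 with a pseudocount of 0.1, 27 and 242 with TPM, 13 and 121 with total recovered reads, 308 and 124 with a size threshold of 1, and 15 and 1 with a threshold of 2. Leaving out 1 library, so that fewer values have to be separate, gave 34 to 172 higher and 20 to 77 lower. The fewest came without control replicate 3, where 28 of the 60 and 9 of the 15 were kept. The share of IDs without a contig name was 46.2% among the higher genes with total recovered reads and 40% with a threshold of 2, and 50% to 61.8% without 1 library. Among the lower genes it was 0% with a threshold of 2, and 3.85% to 17.4% without 1 library.

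Genes at an adjusted p under 0.05 between RNAi and control numbered 0 in limma as reported, 6 with a filter of 5 FPKM, 161 with TPM, 132 with total recovered reads and 0 to 6 without 1 library. Within sides they numbered 0 as reported, 13 with a filter of 5 FPKM, 2 with a pseudocount of 0.1, 364 with TPM, 345 with total recovered reads, 1 without trend and robust, 7 with voom and 0 to 2 without 1 library. Of the 75 genes, 2 passed within sides with TPM and 2 with total recovered reads, and 0 under the other alternatives. The median within-side difference of the lower genes was -0.42 with a threshold of 2, which leaves 1 gene. The cause of these shifts was not tested, and some alternatives also leave out genes or libraries.

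The labels do not say whether replicate numbers pair the libraries, and so few correlations cannot settle it. Those of same-numbered deviations were -0.04, 0.29 and -0.33, with 1 library correlating best with its own number. With the replicate block, limma gave 0 genes at an adjusted p under 0.05 in either fit, and at an unadjusted p under 0.05 39 of the 75 between groups and 21 within sides. Over all tested genes, 1511 and 1636 had such an unadjusted p in these 2 limma fits. Both libraries numbered 1 are on side P and both numbered 2 on side Q, so block and side partly coincide. With block, side and group in 1 fit, little freedom is left for the error, and nothing is read from these counts. The median within-side difference of the lower genes was 0.36 with the block. Depth limits the genes with few reads, down to 65 over the 6 libraries.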
